A study of Mus musculus with 8 samples.

Results

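Spermatogonial stem and differentiating cell genes were followed in whole-testis RNA-seq of wild-type and Iqch mutant mice. The members were 10 genes listed by name for their known place in the spermatogonial lineage. Zbtb16, Gfra1, Ret, Sall4 and Uchl1 stood for undifferentiated spermatogonia, and Kit, Stra8, Dmrt1, Sohlh1 and Sohlh2 for differentiating ones. Dmrt1, which holds back meiosis and is also made by Sertoli cells, was counted with the differentiating members. Of the 10 genes, 9 had a row among the 17127 genes of the table, and Ret was not analysed here. All 9 passed the minimum level used for testing.

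Adult testes came from 4-month-old males. One group was wild type (labelled WT). The other was homozygous for the Iqch mutation (labelled Iqch-/-), a small CRISPR-Cas9 deletion in an exon near the 3′ end of Iqch, a testis gene with an IQ motif. The edited zygotes were of a C57BL/6 and CBA hybrid, and 2 edited lines were made. The labels do not give the line of each testis, and the study names its mu7 line for the RNA-seq coverage it shows. The deletion alters the end of the predicted protein without removing the gene. By Western blot the study found no full-length IQCH protein in mutant testes. It also reports IQCH as absent by immunofluorescence, although a supplementary legend says that mutant animals expressed the protein. Wild-type testes 1 to 4 and mutant testes 1, 2 and 4 were analysed, and mutant 3 was not analysed here. Levels are given as CPM, a gene's reads for every 1000000 in its library.

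Spermatogonia lie against the wall of the seminiferous tubule. The undifferentiated cells renew themselves under GDNF, a ligand from Sertoli and peritubular cells that binds GFRA1 and signals through RET. Retinoic acid then moves them to the differentiating state, in which they carry the receptor KIT and later switch on STRA8 to enter meiosis. KIT binds KIT ligand (Kitl) from Sertoli cells and is also made by Leydig cells, the steroid-producing cells between the tubules. Spermatogonia are a small share of an adult testis. In whole tissue, fewer cells of a type and less RNA per cell cannot be told apart.

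Wild-type testes held Iqch at 207.8 ± 11.3 CPM (SD, n = 4) and mutants at 67.3 ± 2.25 CPM (SD, n = 3), which gave a log2 fold change of -1.63 (SE 0.05, FDR 1.9e-10). If the smallest step of each library is 1 read, libraries held 32064384 to 37551057 reads, and 1 read was 0.0266 to 0.0312 CPM. Across 17126 tested genes, 8640 (50.4%) were called at a false discovery rate (FDR) under 0.01, 36.3% higher and 14.2% lower in mutants. The groups did not overlap at 62.3% of genes. Over all tested genes the log2 fold change had a median of 0.121. After division by median-of-ratios size factors, which assume that most genes do not change, this median was -0.013, and 27.0% of genes were called higher and 25.1% lower. These shares are the background for every count of called genes below. Fold changes were fitted on log2(CPM + 0.1), which slightly understates changes of low genes.

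Of the 9 members, 4 were called higher in mutant testes (Zbtb16, Uchl1, Kit and Dmrt1), beside 36.3% of all genes. In limma, 0 were called lower, and 0 were lower at an unadjusted p under 0.05, beside 14.2% of all genes. After size factors, Kit was the 1 member called higher, beside 27.0% of all genes. None was then called lower, beside 25.1%, and Sohlh1 was lower at an unadjusted p under 0.05. Groups did not overlap at Gfra1, Uchl1, Kit and Dmrt1, beside 62.3% of all genes. Without wild type 2 or mutant 2, 1 member was called higher, and without wild type 3 or mutant 4, 2 were. Kit was the only member whose log2 fold change was above 1.

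**Figure D1:**
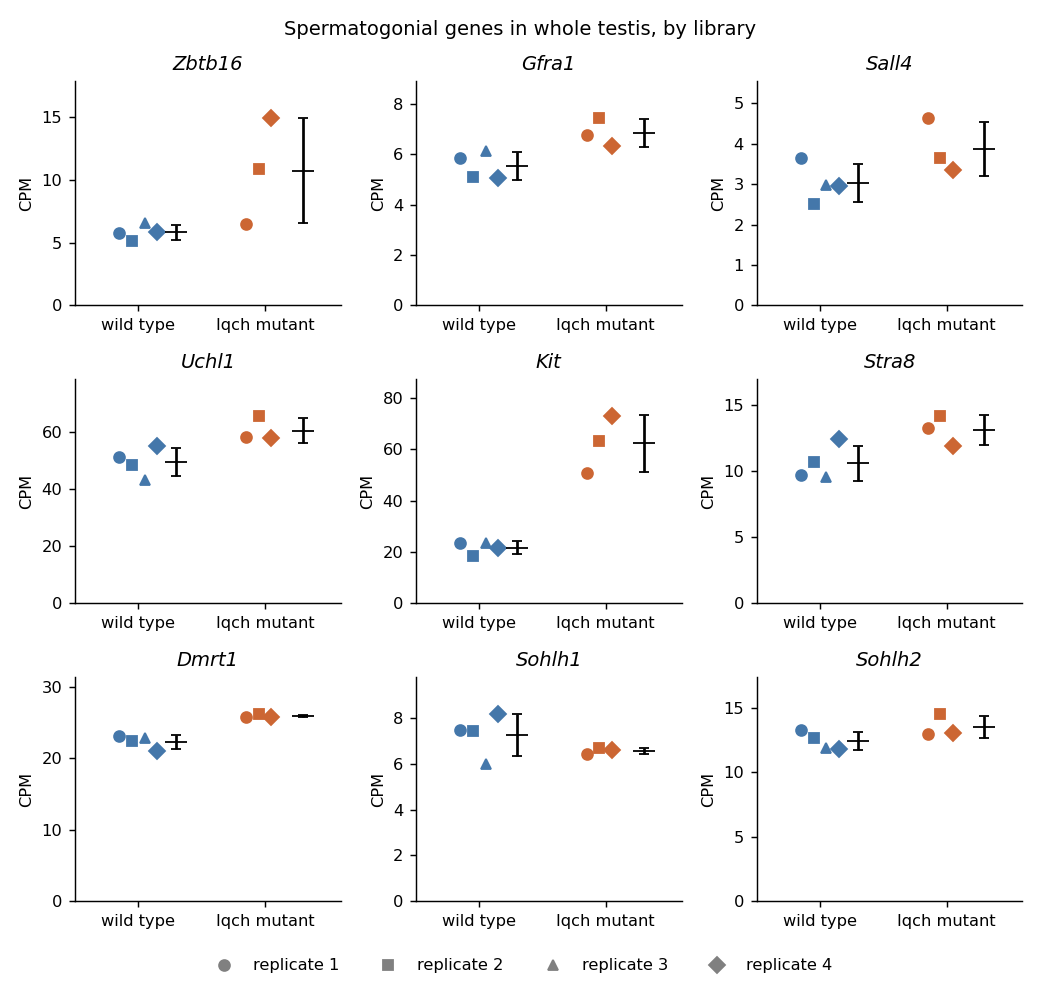
CPM of the 9 spermatogonial genes (y axes, from 0) in the 4 wild-type (blue) and 3 Iqch mutant (orange) libraries, with marker shapes for the replicate number and black bars for the mean ± SD. Kit lay between 18.4 and 23.7 CPM in wild-type and between 50.7 and 72.7 CPM in mutant testes, while 8 genes had means that differed by less than 2-fold.

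Gfra1 (chr19:58223212-58444346, GRCm39, minus strand) encodes the receptor part that binds GDNF. It was at 5.86, 5.10, 6.15 and 5.06 CPM in wild-type testes 1 to 4 and at 6.78, 7.42 and 6.33 CPM in mutants 1, 2 and 4. All 3 mutants were above the highest wild type. The log2 fold change was 0.30 (SE 0.11, FDR 0.033), and the exact two-sided permutation test gave p = 0.057. With 3 libraries against 4, such a test allows no p under 0.029. Gfra1 thus did not pass the threshold, and its value after size factors was 0.17 (FDR 0.20).

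Zbtb16 (chr9:48563141-48748664, minus strand) encodes PLZF, a transcriptional repressor needed for stem cell renewal. It was at 5.77, 5.10, 6.54 and 5.81 CPM in wild-type testes and at 6.46, 10.9 and 14.9 CPM in mutants 1, 2 and 4. Mutant 1 lay within the wild-type range, and mutants 2 and 4 lay above it. Wild types averaged 5.81 ± 0.591 CPM (SD, n = 4) and mutants 10.7 ± 4.20 CPM (SD, n = 3). The log2 fold change was 0.80 (SE 0.21, FDR 0.0051), with an exact permutation p of 0.057. The call was lost without wild type 1, 2 or 4 (0.80, 0.74 and 0.80, FDR 0.012, 0.016 and 0.010) and without mutant 2 or 4 (0.75 and 0.53, FDR 0.022 and 0.025). It was kept without mutant 1 (1.12, FDR 5e-05), the mutant inside the wild-type range, and without wild type 3. Size factors gave 0.67 (FDR 0.012).

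Sall4 (chr2:168590252-168609863, minus strand), a zinc finger factor of undifferentiated spermatogonia, was the lowest member. It was at 3.65, 2.51, 2.98 and 2.96 CPM in wild-type and at 4.63, 3.65 and 3.35 CPM in mutant testes. The groups overlapped, and the log2 fold change of 0.35 (SE 0.16, FDR 0.078) did not pass the threshold.

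Uchl1 (chr5:66832748-66845009, plus strand) encodes a ubiquitin hydrolase of spermatogonia that neurons also make. It was at 51.0, 48.3, 43.3 and 54.9 CPM in wild-type and at 58.0, 65.4 and 57.7 CPM in mutant testes. Every mutant was above every wild type, by a margin smaller than the wild-type range. The log2 fold change was 0.29 (SE 0.08, FDR 0.0051), with an exact permutation p of 0.057. The call was lost without wild type 2 or 3 (FDR 0.015 and 0.011), without mutant 2 (FDR 0.031) and after size factors (0.16, FDR 0.084). Antisense transcripts share 19.4% and 11.9% of its exon bases in the annotation, and the strand setting of the counting is not given in the sources used here. For Gfra1 the antisense shares were 16.5% and 6.16%, and for Sall4 11.0%, so reads of those partners cannot be told apart from the genes' own.

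Kit (chr5:75735576-75817404, plus strand) encodes the receptor that marks differentiating spermatogonia. It was at 23.7, 18.4, 23.6 and 21.4 CPM in wild-type testes and at 50.7, 63.3 and 72.7 CPM in mutants 1, 2 and 4. The lowest mutant was above the highest wild type by more than the wild-type range. The mean rose from 21.7 ± 2.49 CPM (SD, n = 4) to 62.2 ± 11.1 CPM (SD, n = 3), a ratio of 2.86. The log2 fold change was 1.50 (SE 0.11, FDR 2.4e-07), and the exact permutation p was 0.029. Of all tested genes, 3.23% had a larger log2 fold change. Leaving out any 1 library kept the call (1.38 to 1.64, FDR at most 3.8e-06), as did size factors (1.37, FDR 4.8e-07).

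Stra8 (chr6:34897098-34916279, plus strand) is the retinoic acid-induced gene of meiotic entry. It was at 9.72, 10.7, 9.56 and 12.5 CPM in wild-type and at 13.3, 14.2 and 11.9 CPM in mutant testes. Mutants 1 and 2 were above all wild types, and mutant 4 was below wild type 4. The log2 fold change was 0.31 (SE 0.10, FDR 0.020), with an exact permutation p of 0.086. It passed the threshold without wild type 4 (0.39, FDR 0.0035), while size factors gave 0.18 (FDR 0.15).

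Dmrt1 (chr19:25482860-25581693, plus strand), a factor of spermatogonia and Sertoli cells that holds back meiosis, was at 23.1, 22.4, 22.8 and 21.0 CPM in wild-type testes. It was at 25.9, 26.2 and 25.8 CPM in mutants, all above the wild types. The log2 fold change of 0.22 (SE 0.06, FDR 0.0073) was called, and the exact permutation p was 0.029. The call held only when wild type 1 was left out. It was lost without wild type 2, 3 or 4 (FDR 0.017, 0.011 and 0.017) and without mutant 1, 2 or 4 (FDR 0.020, 0.025 and 0.023). After size factors the value was 0.08 (FDR 0.25).

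Sohlh1 and Sohlh2 encode a pair of basic helix-loop-helix factors that drive spermatogonial differentiation and bind E-boxes in DNA. Sohlh1 (chr2:25733007-25737351, minus strand) was at 7.48, 7.43, 5.96 and 8.15 CPM in wild-type and at 6.41, 6.67 and 6.60 CPM in mutant testes, with every mutant inside the wild-type range. Its log2 fold change was -0.13 (SE 0.11, FDR 0.32), the one negative value among the members. Sohlh2 (chr3:55089265-55117382, plus strand) was at 13.3, 12.7, 11.9 and 11.8 CPM in wild-type and at 13.0, 14.5 and 13.1 CPM in mutant testes. Its log2 fold change was 0.12 (SE 0.08, FDR 0.20) and took the other sign after size factors (-0.01, FDR 0.91).

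**Figure D2:**
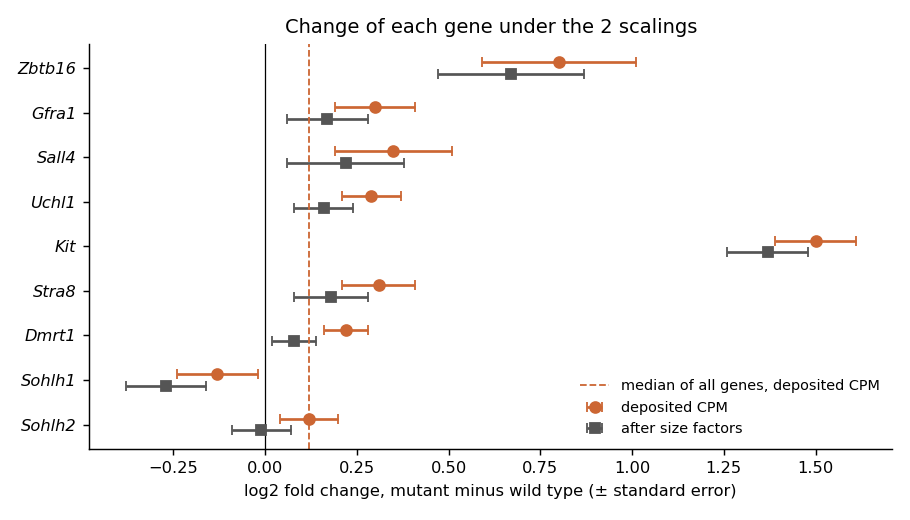
Log2 fold change of each gene (x axis, mutant minus wild type, bars ± SE) on the deposited CPM (orange circles) and after size factors (grey squares), with the median of all genes on the deposited CPM as a dashed line at 0.121. Kit was at 1.50 and 1.37 under these scalings, Zbtb16 at 0.80 and 0.67, and Sohlh1 at -0.13 and -0.27.

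DNA before the RefSeq start of Kit, Stra8 and Sohlh1 is shown because Kit carried the largest difference, SOHLH1 and SOHLH2 bind E-boxes (CANNTG), and the retinoic acid receptors that act on Stra8 bind repeats of AGGTCA. RefSeq promoter windows matched 6 of the 10 members, and these stretches were found in GRCm39 by their sequence. Kit and Sohlh1 are printed up to the gene's first annotated exon base. The RefSeq start of Stra8, chr6:34897883, lies inside the annotated gene, downstream of the gene start given above and within an exon of another transcript, so only 30 bases around each AGGTCA are shown. Each reads 5′ to 3′ on the gene's strand, with capitals for CANNTG and AGGTCA searched on both strands. CACGTG is 1 form of CANNTG. The Kit line is chr5:75735397-75735575, the Stra8 lines are chr6:34897677-34897706 and chr6:34897833-34897862, and the Sohlh1 line is chr2:25737352-25737510.
Kit: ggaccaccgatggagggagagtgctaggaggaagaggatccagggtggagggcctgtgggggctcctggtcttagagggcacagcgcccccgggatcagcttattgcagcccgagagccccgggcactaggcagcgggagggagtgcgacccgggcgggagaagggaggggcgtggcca
Stra8, AGGTCA 194 bases before the RefSeq start: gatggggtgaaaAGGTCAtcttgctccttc
Stra8, AGGTCA 38 bases before the RefSeq start: gcctggggtaccAGGTCAgttttttacctg
Sohlh1: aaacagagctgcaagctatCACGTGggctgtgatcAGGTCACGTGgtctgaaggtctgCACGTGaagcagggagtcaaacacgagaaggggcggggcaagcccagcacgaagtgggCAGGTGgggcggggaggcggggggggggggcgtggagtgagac

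The 179 bases before Kit held 0 CANNTG and 0 AGGTCA, whereas 55.3% and 10.2% of RefSeq windows of that length held them. Only these letters in this window were searched. The 250-base window of Stra8 held AGGTCA at both sites shown, a motif found in 14.0% of 32851 windows of 250 bases. The 159 bases before Sohlh1 held 4 CANNTG, of which 3 were CACGTG, a form found in 3.12% of windows of that length, and 1 AGGTCA that overlaps a CACGTG. Over 250 bases, Gfra1 held 3 CANNTG, Sohlh2 held 1 and Uchl1 held 0, while 66.2% of all windows held at least 1. These matches are letters in the sequence and were not tested for binding.

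Between genes, levels can be compared only per length. Per kilobase of annotated exon in wild-type testes, Uchl1 had the highest level (17.3 ± 1.70 CPM per kb, SD, n = 4), then Dmrt1 (8.22 ± 0.347). Stra8 (5.88), Sohlh1 (5.26) and Sohlh2 (4.61) followed, with overlapping libraries between neighbours in that order. Kit came next at 2.30 ± 0.263, then Gfra1 (0.870), and last Zbtb16 (0.618) and Sall4 (0.537), which overlapped. In mutant testes Kit was at 6.57 ± 1.17 CPM per kb (SD, n = 3), between Stra8 (7.29) and Sohlh2 (5.02) and overlapping both. In mutants Zbtb16 (1.14) and Gfra1 (1.07) also overlapped.

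The undifferentiated members had a median log2 fold change of 0.32 (0.19 after size factors). The differentiating members had one of 0.22 (0.08 after size factors), in both cases the value of Dmrt1. All genes had 0.121 and -0.013. Summed CPM of the 4 undifferentiated members was 58.9 to 68.7 in wild-type and 75.9 to 87.3 in mutant testes. For the 5 differentiating members it was 71.5 to 77.2 and 109.2 to 130.2. The ratio of the differentiating to the undifferentiated sum was 1.17 ± 0.0661 (SD, n = 4) in wild-type and 1.48 ± 0.0864 (SD, n = 3) in mutant testes. Without Kit the ratio was 0.827 ± 0.0423 and 0.725 ± 0.0405, so its direction turned on that gene. Without Kit and Zbtb16 it was 0.911 ± 0.0524 and 0.834 ± 0.0257. The undifferentiated sum was mostly Uchl1, on average 49.4 of 63.7 CPM in wild-type and 60.3 of 81.8 CPM in mutant testes. Without Kit, Dmrt1 was the largest part of the differentiating sum. The sums were not divided by gene length, so the ratios rest largely on these genes and do not measure a balance of cells. These ratios were given no test.

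Among 30 other genes of undifferentiated spermatogonia, 14 were tested. Limma called 6 higher and 0 lower, beside 36.3% and 14.2% of all genes, and 0 were lower also at an unadjusted p under 0.05. Lin28a (-0.13), Lhx1 (-0.09) and Sox3 (-0.07) had negative log2 fold changes and were not called. After size factors 4 were called higher (Tspan8, Plvap, Itga6 and Foxo1) and 0 lower, beside 27.0% and 25.1% of all genes. Lin28a was then lower at an unadjusted p under 0.05. Plvap, which is among the 6 and the 4, reached the minimum level only through the mutants, in which it is high, and had to differ. Of the other 13 genes, 5 were called higher on the deposited CPM, with a median log2 fold change of 0.21. Tspan8, a surface tetraspanin, was at 2.24 to 2.45 CPM in wild-type and at 12.4, 15.4 and 17.0 CPM in mutants 1, 2 and 4 (log2 fold change 2.62, FDR 5.9e-09). Plvap, which endothelium also makes, was at 0.699 to 1.17 CPM in wild-type and at 3.36, 2.68 and 5.01 CPM in mutant testes (1.89). Itga6, a laminin receptor subunit, had 1.09 (FDR 5.7e-07) and Foxo1, a transcription factor under PI3K control, had 0.54 (FDR 0.00031). Tspan8, Itga6 and Foxo1 kept their calls after size factors and without any 1 library.

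Id4, an inhibitor of differentiation, rose from 33.8 ± 0.885 (SD, n = 4) to 38.5 ± 1.67 CPM (SD, n = 3), a log2 fold change of 0.19 (FDR 0.0090). That call held without only 2 of the 7 libraries and not after size factors (0.05, FDR 0.37). The GDNF-responsive factors Etv5 and Bcl6b had 0.17 (FDR 0.045) and 0.40 (FDR 0.025) and did not pass. Gdnf, Nanos2 and Neurog3 were not analysed here.

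Of 20 other genes of differentiation and meiotic entry, 19 were tested. Limma called 2 higher and 0 lower (1, Ccnd2, was lower at an unadjusted p under 0.05), beside 36.3% and 14.2% of all genes. The higher genes were Dnmt3a, a DNA methyltransferase (0.46, FDR 0.00018), and Rara, a retinoic acid receptor of Sertoli and germ cells (0.37, FDR 9.9e-05), both called also after size factors. Rarg, the receptor through which spermatogonia respond to retinoic acid, had 0.36 (FDR 0.035) and Meiosin, the partner of STRA8, 0.28 (FDR 0.093). Ccnd2, a cyclin of differentiating spermatogonia, was at 6.21 to 8.13 CPM in wild-type and at 6.15, 5.49 and 5.07 CPM in mutant testes. Its log2 fold change of -0.30 (FDR 0.044) was called lower only after size factors (-0.43, FDR 0.0072), where 2 genes of the list were called higher and 2 lower. The list median was 0.14 on the deposited CPM and 0.01 after size factors.

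Of 20 niche ligands, the signals that surrounding cells send to spermatogonia, 10 were tested. Limma called 8 higher and 0 lower, beside 36.3% and 14.2% of all genes, and 0 were lower also at an unadjusted p under 0.05. After size factors 7 were called higher and 0 lower, beside 27.0% and 25.1%, and Artn was lower at an unadjusted p under 0.05. Kitl was at 15.4, 12.6, 17.7 and 15.2 CPM in wild-type and at 34.3, 40.5 and 41.7 CPM in mutants 1, 2 and 4, all far above the wild types (log2 fold change 1.35, SE 0.11, FDR 2.9e-07). The ratio of Kit to Kitl CPM was 1.43 ± 0.0862 (SD, n = 4) in wild-type and 1.59 ± 0.138 (SD, n = 3) in mutant testes. Cxcl12, a chemokine of the stem cell niche, had 2.17 (FDR 1.3e-09), and the Wnt ligands Wnt5a and Wnt6 had 1.48 (FDR 2.0e-05) and 1.47 (FDR 1.4e-08).

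Of 20 receptors and co-receptors for such signals, 18 were tested, with 12 called higher and 1 lower, beside 36.3% and 14.2% of all genes. After size factors 11 were called higher and 2 lower, beside 27.0% and 25.1%. Csf1r, a receptor best known from macrophages, had 1.80 (FDR 2.5e-08), the cytokine receptor Lifr 1.59 (FDR 1.3e-06), the FGF receptor Fgfr2 1.46 (FDR 3.5e-06) and the Wnt receptor Fzd7 1.16 (FDR 2.8e-06). Lifr was at 46.7, 74.1 and 77.6 CPM in mutants 1, 2 and 4 and, like Kit and Zbtb16, had its lowest mutant value in mutant 1. Gfra2, a relative of Gfra1 that binds neurturin, fell by 0.26 on the log2 scale (FDR 0.0038). That call held without 5 of the 7 libraries in turn and after size factors.

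All 25 intermediates of GDNF and KIT signalling were tested, with 13 called higher and 1 lower, beside 36.3% and 14.2% of all genes. The largest changes were those of the adaptor Grb2 (0.99, FDR 2.4e-07), the PI3-kinase subunit Pik3r1 (0.95, FDR 2.6e-06), the kinase Akt1 (0.94, FDR 3.4e-08) and the transcription factor Foxo3 (0.72, FDR 2.0e-07). Mapk3, the kinase ERK1, fell by 0.13 (FDR 0.0084), a call that was lost without any 1 library and kept after size factors. The list median was 0.29, and after size factors 11 genes were called higher and 3 lower, beside 27.0% and 25.1% of all genes. These genes are used by many cell types.

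**Figure D3:**
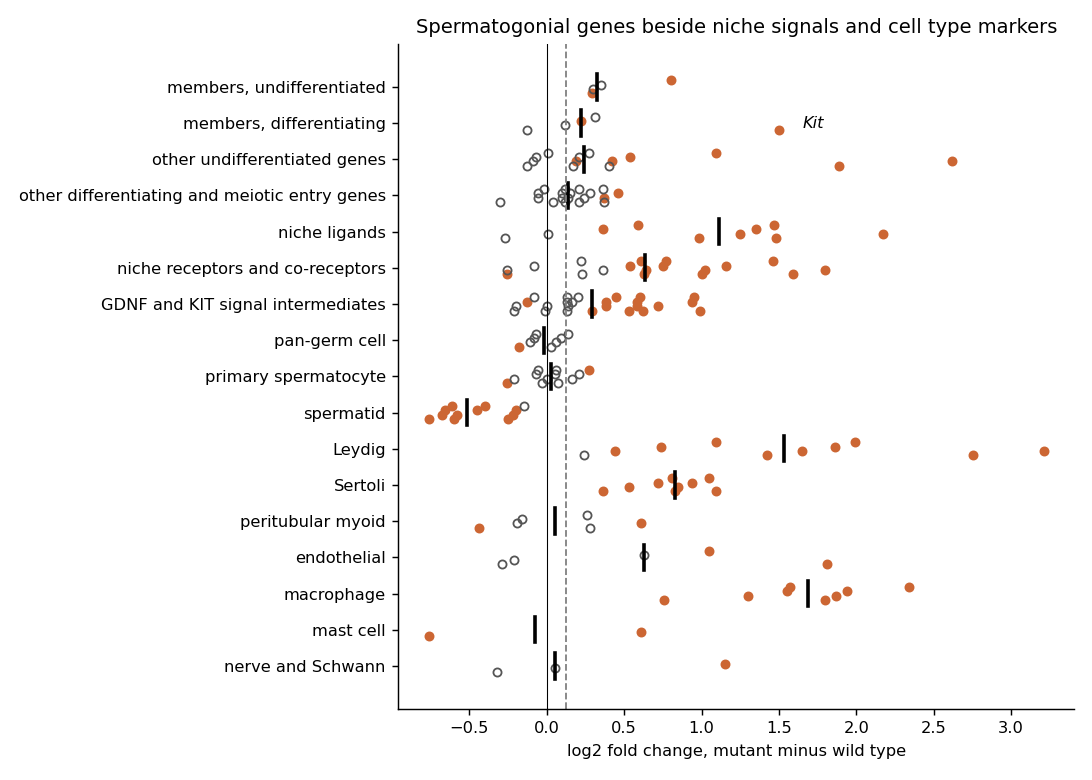
Log2 fold change (x axis, mutant minus wild type, deposited CPM) of each tested gene of the 17 gene lists (rows), filled orange when called at an FDR under 0.01 and open grey when not, with black bars for the medians and a dashed line at the median of all genes, 0.121. Genes of the other undifferentiated, niche ligand, receptor, Leydig, endothelial and macrophage lists lay above Kit, and the other members lay at 0.80 or lower.

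Most Leydig cell markers were higher in mutant testes, as was Kit. Of 10 markers, all tested, limma called 9 higher and 0 lower (0 also at an unadjusted p under 0.05), beside 36.3% and 14.2% of all genes. After size factors 9 were called higher and 0 lower, beside 27.0% and 25.1%. The summed level of the 10 was 1219 to 1446 CPM in wild-type and 4905 to 5054 CPM in mutant testes. The largest were Hsd3b1 (3.21, FDR 7.0e-09), Insl3 (2.75, FDR 2.0e-13), Hsd17b3 (1.99, FDR 1.8e-08) and Hsd3b6 (1.86, FDR 1.6e-09), 3 steroid enzymes and a peptide hormone. Hsd3b1 and Hsd3b6 are near copies, so their split of reads is uncertain. None of the 10 was at 0. Of these markers, 5 had a larger log2 fold change than Kit.

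The ratio of Kit to the summed Leydig markers was 0.0167 ± 0.00279 (SD, n = 4) in wild-type and 0.0125 ± 0.00220 (SD, n = 3) in mutant testes. Insl3 made up on average 438 of 1311 CPM of that sum in wild-type and 2941 of 4996 CPM in mutant testes. The ratio to the sum thus rests largely on Insl3. Marker by marker, the mean ratio was lower in mutants for 5 and higher for 5 of the 10. The mutant mean over the wild-type mean of that ratio ran from 0.313 for Hsd3b1 to 2.46 for Star, the marker that was not called. The ratio of Kit to Stra8 was 2.08 ± 0.423 and 4.79 ± 1.17. Among the mutants, Kit was lowest in mutant 1 and highest in mutant 4. The Leydig sum, mostly Insl3, was 5030, 4905 and 5054 CPM in mutants 1, 2 and 4. Single markers differed in their order over these mutants. Hsd17b3 (78.7, 82.2 and 109.9 CPM) and Lhcgr (23.2, 24.5 and 34.2 CPM) rose in the order of Kit. Cyp17a1 (561, 554 and 528 CPM) and Star (175, 128 and 110 CPM) fell in it, and the other markers followed neither order. The part of Leydig cells in the Kit value was not tested.

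**Figure D4:**
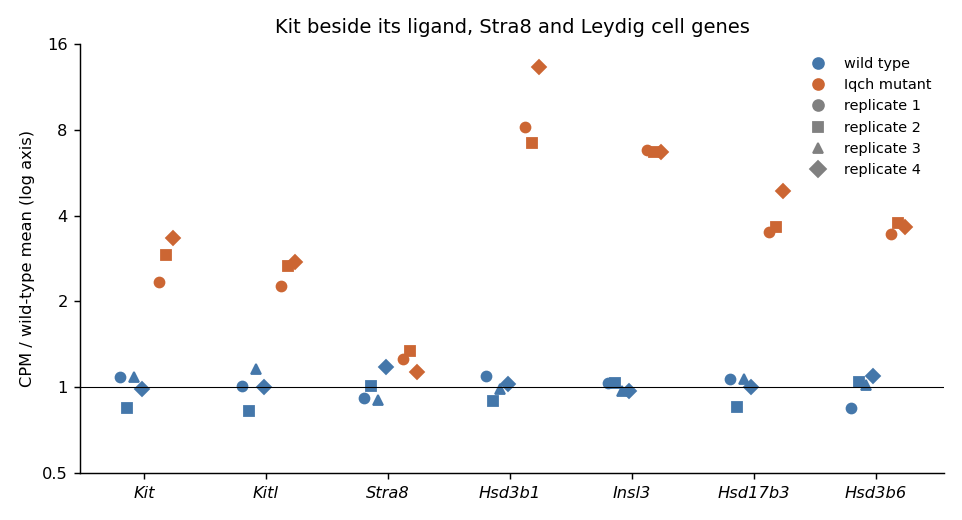
CPM of each library divided by the wild-type mean of the gene (y axis, log scale) for Kit, its ligand gene Kitl, Stra8 and 4 Leydig cell genes, in wild-type (blue) and Iqch mutant (orange) testes with shapes for the replicate number. Kit and Kitl lay above 2 in all 3 mutants, whereas Stra8 groups overlapped.

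Sertoli and macrophage markers were also higher. Of 10 Sertoli markers, 9 were tested (Fshr was not analysed here), and all 9 were called higher, beside 36.3% of all genes. After size factors 7 were called higher, beside 27.0%, while Sox9 (FDR 0.022) and Amh (FDR 0.035) were not. The summed level was 1294 to 1397 CPM in wild-type and 2640 to 2786 CPM in mutant testes. Clu had 1.09 (FDR 1.5e-09) and Gata1 1.05 (FDR 1.3e-06), and 0 of the 9 had a larger log2 fold change than Kit. All 8 macrophage markers were called higher, also after size factors, beside 36.3% and 27.0% of all genes. In sum they rose from 92.4 to 103.3 CPM to 284.6 to 325.1 CPM, led by Lyz2 (2.34, FDR 2.5e-09) and C1qa (1.94, FDR 8.5e-09). Of these, 6 had a larger log2 fold change than Kit. None of the tested markers was at 0. The part of either cell type in the members' values was not tested.

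The germ cell lists went otherwise. Of 8 tested pan-germ cell genes, limma called 0 higher (1 at an unadjusted p under 0.05) and 1 lower (Mael, a piRNA pathway gene, -0.18, FDR 0.00046), with a list median of -0.02. After size factors 0 were higher, also at an unadjusted p under 0.05, and 4 lower, with a median of -0.15. Of 12 spermatocyte genes, the recombination gene Spo11 was called higher (0.27, FDR 0.0033, lost after size factors) and the cyclin Ccna1 lower (-0.26, FDR 0.00073), with 0 higher and 3 lower after size factors. Of 12 spermatid genes, 11 were called lower, among them the protamine genes Prm3 (-0.76, FDR 1.7e-06) and Prm1 (-0.66, FDR 2.1e-07), the transition protein gene Tnp1 (-0.68, FDR 1.7e-07) and Odf1 (-0.61, FDR 9.3e-07). Their summed level was 22452 to 23732 CPM in wild-type and 14445 to 16543 CPM in mutant testes. The part of this lower share in the small positive values of the members was not tested.

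Genes with the pattern most like each member were taken by Pearson r of log2(CPM + 0.1) over the 7 libraries, as a description. For Kit these were Fxr2 (r = 1.00) and Smc1a (r = 0.999), and 2856 genes had r above 0.95. For Zbtb16 they were Tfcp2 (0.990) and Zfp979 (0.988), for Gfra1 Peg3 (0.991) and Septin14 (0.978), and for Sall4 Pik3c2b (0.966) and Slpi (0.964). For Uchl1 they were Xylt2 (0.990) and Pstpip1 (0.988), for Stra8 Urm1 (0.994) and Rbx1-ps (0.989), and for Dmrt1 Fcgr2b (0.995) and Nfkbia (0.994). For Sohlh1 they were Ncbp2as2 (0.972) and Gm37174 (0.963), and for Sohlh2 Hba-a2 (0.971) and Gm12989 (0.960). The libraries share genotype groups, so a gene that differs between groups resembles many others, and only 4 to 91 genes passed r = 0.95 for members other than Kit and Dmrt1 (768).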

How the data were processed

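Total RNA of whole testis was sequenced from 1 library per animal as paired ends (TruSeq RNA kit). The authors used Trimmomatic for trimming, Subread for mapping to GRCm39 and featureCounts for counting reads per gene. They dropped genes with few reads and excluded 1 mutant as an outlier. The strand setting and annotation release are not given in the sources used here. The deposited values are CPM, which sum to 1000000 in each library. All values (100%) were whole multiples of a library step (tolerance 0.01 reads), taken as 1 read, and intervals of counts cover counting error only.

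Groups came from the genotype labels. Differences were fitted on log2(CPM + 0.1) with limma (version 3.58.1, R version 4.3.3, eBayes with a trend). A gene needed 2.2 CPM or more in no fewer than 2 libraries of either group. P-values were adjusted by Benjamini-Hochberg over 17126 genes and called at an FDR of 0.01. The p-values measure the spread between these animals. On simulated libraries of 16532 genes the fit called 200 of 200 genes changed 2-fold and 0 unchanged ones. In that simulation all genes had 1 small fixed dispersion. The changed genes were at 5 CPM or more, with equal numbers up and down. It thus does not cover changes under 2-fold, uneven spread such as that of Zbtb16, or a change of many genes in 1 direction. Positions, exon lengths and symbols came from GENCODE M39 (17045 genes found), tables and figures from Python 3.11.15, pandas 2.3.3 and matplotlib 3.10.9. Named genes were all members, up to 4 called, non-overlapping genes per list and direction with the largest change, 11 further genes set by name, and the 2 most correlated genes per member. The members and lists were chosen with earlier results of these data known. Alternatives were other pseudocounts (1 and 0.01), no minimum or 5 CPM, scaling by size factors, a block for replicate number, and each library left out.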

Additional observations from a re-analysis of the deposited data

How the results depend on the processing

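Pseudocounts of 1 and 0.01, no minimum and a minimum of 5 CPM (which gave no value for Sall4) each left 4 members called higher and 0 lower. Size factors left 1 member called higher (Kit) and gave medians of 0.19 for the undifferentiated and 0.08 for the differentiating members. Sohlh2 changed sign under size factors (-0.01). Leaving out 1 library at a time gave 1 to 3 members called higher, with 1 without wild type 2 or mutant 2 and 2 without wild type 3 or mutant 4. Replicate numbers did not pair the samples, as deviations of same-numbered libraries correlated at 0.026, 0.009 and -0.098 and not every library correlated best with its own number. With that number as a block, 2 members were called higher. Kit was called under all 13 alternatives run. The planned count tests on whole reads were not run. All values were whole multiples of a library step, but that a step is 1 read was an assumption. With 3 mutants against 4 wild types, exact tests cannot go below p = 0.029, and Sall4, at about 3 CPM, rested on the fewest reads.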

Other observations

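Markers of other cell types of the testis wall and interstitium moved in both directions. Of 6 tested peritubular myoid genes, Des, a filament gene, was called higher (0.61, FDR 0.00032) and Actg2, a smooth muscle actin, lower (-0.44, FDR 3.4e-05). Their sums were 348.3 to 421.9 CPM in wild-type and 289.9 to 329.5 CPM in mutant testes. Actg2 made up on average 299.4 of 382.9 CPM in wild-type and 220.7 of 312.7 CPM in mutant testes, so the sums mostly follow that gene. Of 5 tested endothelial genes, the VEGF receptor Kdr (1.81, FDR 3.9e-07) and the cadherin Cdh5 (1.05, FDR 6.7e-06) were called higher by limma and 0 lower (1, Vwf, at an unadjusted p under 0.05), with sums of 30.6 to 34.5 and 44.0 to 46.4 CPM.

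Mast cells also depend on KIT. Of 9 mast cell genes, 2 were tested, and 7 were not analysed here, among them the proteases Cpa3 and Cma1. Hdc, the histamine-forming enzyme, was called higher (0.61, FDR 1.2e-05) and the transcription factor Gata2 lower (-0.76, FDR 9.9e-06). Of 9 nerve and Schwann cell genes, 3 were tested, and Tubb3, a neuronal tubulin, was called higher (1.15, FDR 2.5e-07).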
